A study of Mus musculus with 3 samples.

Results

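A barcode was counted as collecting duct-like when transposition events at 6 genes of the collecting duct passed a fixed minimum. The genes were Aqp2, Aqp3, Scnn1b, Scnn1g, Atp6v1g3 and Foxi1. A barcode needed at least 1000 counts in peaks and at least 4 counts at these genes, spread over at least 2 of them. Its score had to reach that of a thick ascending limb set and exceed those of a proximal tubule set and a myeloid set. The rule kept 111 of 13757 barcodes. The score reads these genes directly, so their levels in the members are a description.

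The study profiled open chromatin in mouse kidney cells by mtscATAC-seq, in which fixed, permeabilised cells keep their mitochondria while a transposase cuts accessible DNA. All samples carried a mutation in trnE, the mitochondrial gene of the glutamate tRNA, and are labelled with a load, the percent of mutated mitochondrial genomes. Old library 1 (old replicate 1 in the plots) was a kidney of 75 weeks at 75% load, old library 2 (old replicate 2) a kidney of 75 weeks at 80% load, and the young library a kidney of 3 weeks at 80% load. All groups used here are mutated, so nothing here compares mutated with unmutated kidney, and the load was not re-measured. Age was compared in 2 old libraries and 1 young one. Whether the old libraries are of separate animals is not in the labels, and p-values therefore reflect only how far these samples spread, possibly for technical reasons. The labels give neither sex nor strain.

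The collecting duct is the last segment of the renal tubule and sets the final content of salt, water and acid in urine. Its principal cells take up water through aquaporins and sodium through the epithelial sodium channel, under vasopressin and aldosterone. Its intercalated cells move acid and base with a vacuolar proton pump. Among the genes of the rule, Aqp2 encodes the vasopressin-regulated water channel of the apical membrane and Aqp3 a water channel of the basolateral membrane. Scnn1b and Scnn1g encode the beta and gamma subunits of the epithelial sodium channel. Atp6v1g3 encodes a subunit of the proton pump found in intercalated cells, and Foxi1 the transcription factor that directs these cells.

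The promoters of 4 of these genes are shown because they differ in their start peaks: Scnn1b, Scnn1g and Aqp3 had a peak over the start in at least 1 library and Atp6v1g3 in none. Each is the 250 bases before the gene start from RefSeq (GRCm38.p6, the assembly named mm10), 5′ to 3′ on the gene's strand, with motif matches in capitals. The windows are chr7:121864788-121865037 (plus strand) for Scnn1b, chr7:121734229-121734478 (plus strand) for Scnn1g, chr4:41098184-41098433 (minus strand) for Aqp3 and chr1:138273488-138273737 (plus strand) for Atp6v1g3.
Scnn1b: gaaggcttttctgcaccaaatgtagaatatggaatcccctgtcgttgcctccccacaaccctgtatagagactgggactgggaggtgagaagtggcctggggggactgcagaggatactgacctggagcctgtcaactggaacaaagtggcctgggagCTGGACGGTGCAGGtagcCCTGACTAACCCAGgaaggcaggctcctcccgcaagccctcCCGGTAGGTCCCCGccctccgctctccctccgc
Scnn1g: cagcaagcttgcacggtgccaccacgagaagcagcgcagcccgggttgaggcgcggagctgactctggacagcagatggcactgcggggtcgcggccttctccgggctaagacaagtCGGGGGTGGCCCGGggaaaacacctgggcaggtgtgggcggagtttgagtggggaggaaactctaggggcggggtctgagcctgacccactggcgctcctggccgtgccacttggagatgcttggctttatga
Aqp3: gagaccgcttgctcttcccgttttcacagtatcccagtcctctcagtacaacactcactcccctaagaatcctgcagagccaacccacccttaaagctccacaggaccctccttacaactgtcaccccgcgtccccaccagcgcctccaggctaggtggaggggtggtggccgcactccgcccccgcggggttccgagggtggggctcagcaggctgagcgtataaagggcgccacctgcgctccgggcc
Atp6v1g3: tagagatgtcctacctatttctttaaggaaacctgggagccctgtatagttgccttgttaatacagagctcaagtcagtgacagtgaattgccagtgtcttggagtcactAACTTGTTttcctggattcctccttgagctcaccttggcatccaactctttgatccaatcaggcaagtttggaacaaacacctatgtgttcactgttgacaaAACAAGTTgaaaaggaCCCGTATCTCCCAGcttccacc
Both strands were searched for 12 motifs. The capitals in Scnn1b mark 3 matches to the TFCP2L1 motif, a pair of CCNG with 6 bases between them where N is any base, and those in Scnn1g mark 1. Atp6v1g3 held 2 matches to the palindromic GRHL motif AACNNGTT and 1 to that of TFCP2L1, and the Aqp3 window held none of the 12. No printed match overlapped another. Of 32851 promoters of the same length, 24.9% held the TFCP2L1 motif and 3.64% the GRHL motif. TFCP2L1 and the grainyhead-like factors are transcription factors of distal tubule and duct epithelium. Among the other motifs searched, FOX is TGTTTAC, found in 3.17% of all promoters. The HNF4 motif is CAAAGTCCA (0.384%), and that of AP-1 is TGANTCA (6.75%). GATA factors have AGATAA (9.99%). For the ETS family it is CCGGAAGT (2.88%), and for the myeloid factor SPI1 it is GAGGAAGT (2.44%). The TEAD motif is CATTCC (12.6%), whereas HOX has TTTATGG (2.43%). HNF1 and the steroid receptor palindrome, given by name, were found in 0.371% and 0.00913%. None of these was in the 4 windows shown. A match is a run of letters and not a measured binding site.

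The rule kept 50 of 5563 barcodes in old library 1, a share of 0.899% (exact 95% binomial interval 0.668 to 1.18). It kept 38 of 4083 in old library 2, or 0.931% (0.659 to 1.28), and 23 of 4111 in the young library, or 0.559% (0.355 to 0.838). The intervals overlapped, and like all intervals here they cover counting error only. Members were somewhat deeper than the libraries they came from, with a median of 20725.5, 17118 and 27728 counts in old library 1, old library 2 and the young library against 16607, 14175 and 25459 over all barcodes kept. Libraries shared between 26 and 31 barcode sequences in each pair, and no member was among them.

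Most members passed on very few fragments. Both ends of a fragment are usually counted, so a score of 4 is commonly 1 fragment at each of 2 genes. That smallest pattern, 2 counts at each of 2 genes, made up 26 of the 50 members of old library 1, 21 of 38 in old library 2 and 5 of 23 in the young library. The median score was 4 in both old libraries and 6 in the young one, and the highest scores were 11, 10 and 24. A score of 3 with every other term met was found in 4, 2 and 0 barcodes, while 27, 21 and 5 members stood exactly at the minimum of 4. A sufficient score over at least 2 genes was found in 157 barcodes of old library 1, 184 of old library 2 and 448 of the young library. Of these, 21, 137 and 417 failed the proximal tubule term. The myeloid term was failed by 93, 55 and 141, and a barcode could fail more than 1 term.

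The label of collecting duct cells held for only some of the members. All barcodes were clustered on 70734 regions with a peak in every library, and clusters were named from marker sets. One cluster of 588 barcodes carried markers from the loop of Henle to the collecting duct, and 30 of the 111 members, or 27.0% (19.0 to 36.3), lay in it. They were 3 of 50 members in old library 1, 17 of 38 in old library 2 and 10 of 23 in the young library. Old library 1 stood apart, since 4912 of its 5563 barcodes lay in immune clusters, and 34 of its 50 members lay there too. In the other libraries the proximal tubule clusters held 15 of 38 and 9 of 23 members, and clusters left without a name 6 and 1. The same 30 members stood in the matching cluster under each of seeds 1 to 10 of the clustering, which used seed 7. The members are therefore described by the rule, as barcodes with counts at collecting duct genes, and those in the loop to collecting duct cluster are described separately.

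Barcodes of the loop to collecting duct cluster passed the rule more often than the rest. The share was 5.10% (3.47 to 7.20) of the cluster and 0.615% (0.489 to 0.764) of all other barcodes. The cluster's shares were alike in the 3 libraries, at 5.56% (1.16 to 15.4), 5.18% (3.05 to 8.17) and 4.85% (2.35 to 8.75). Depth differed in the other direction, with a median of 7884 counts in the cluster and 17747 outside it. After every barcode was thinned to 5000 fragments, 5.62% of the cluster (3.18 to 9.10) and 0.648% of the others (0.499 to 0.826) passed, with 321 and 3287 shallower barcodes left out. The rule and the clusters read the same counts, so no test was made.

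**Figure D1:**
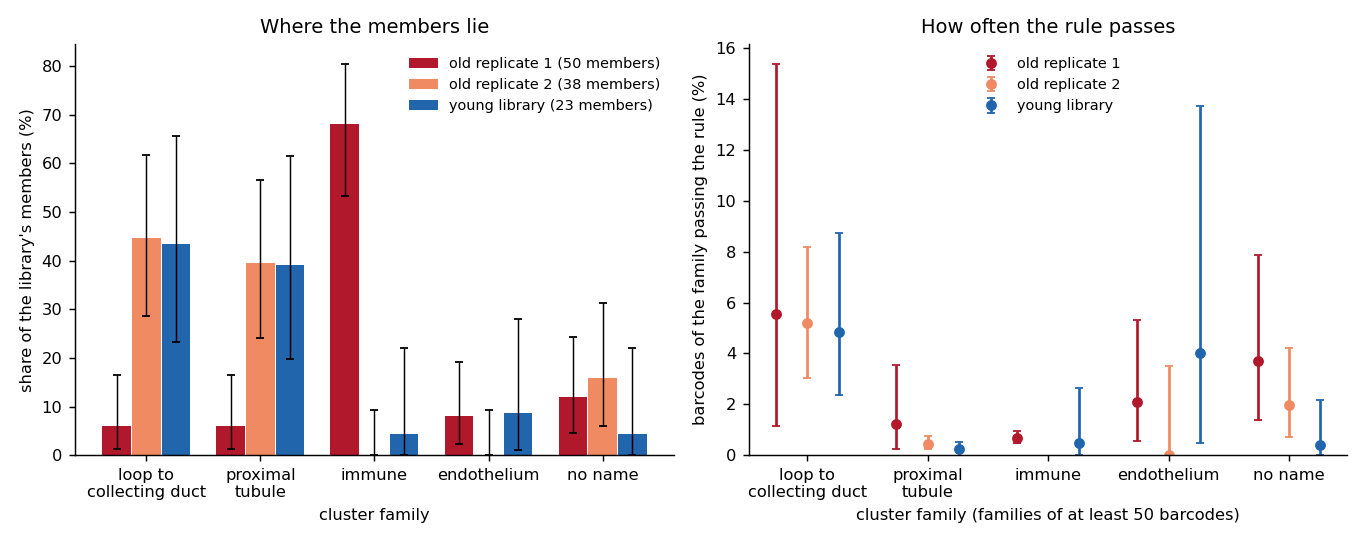
Left, share of each library's members (percent) in each cluster family, with exact 95% binomial intervals. Right, share of each family's barcodes that passed the rule, for families of at least 50 barcodes. In old library 1 most members lay in immune clusters, while in all 3 libraries about 5% of the loop to collecting duct cluster passed.

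The peaks at the genes of the rule differed in how far they set distal cells apart. The peak over the Scnn1b start was at chr7:121864539-121865512 in old library 2 and chr7:121864549-121865297 in the young library. It held 12.2 CPM (a counts-per-million unit, relative to all counts in peaks) in the loop to collecting duct cluster and 1.00 in proximal tubule clusters of old library 2. The young library gave 12.0 and 0.645 CPM. A second peak inside the gene, at chr7:121874304-121875182 in old library 2, held 10.4 CPM against 0.364, and its counterpart in the young library, at chr7:121874321-121875146, held 9.97 against 0.362. Old library 1 had neither peak, and its 1 peak at Scnn1b lay deeper in the gene. Scnn1b had counts in 4 of 50 members there, against 21 of 38 and 11 of 23.

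The Scnn1g start was open more widely. Its peak, at chr7:121733872-121734743 in old library 1, was the most often used in every library, with counts in 28 of 50, 21 of 38 and 17 of 23 members. It held 51.2, 36.4 and 30.7 CPM in the loop to collecting duct cluster and 15.7, 16.5 and 13.7 CPM in proximal tubule clusters. Aqp2 and Aqp3 separated the families less. Aqp2 stood at 10.2, 14.6 and 9.14 CPM in the cluster and 14.2, 11.02 and 8.39 in proximal tubule. For Aqp3 the values were 12.3, 3.19 and 17.9 CPM in the cluster against 8.79, 6.19 and 21.0. Foxi1 had no peak in any library, so it added nothing to any score.

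Atp6v1g3 differed between libraries in its number of peaks. Old library 1 had 7 peaks within the gene (chr1:138273738-138289462) and its 2 kb flanks, old library 2 had 2 and the young library 1. In old library 1 these peaks held 36.2 CPM in immune clusters, 21.5 in the loop to collecting duct cluster and 3.77 in proximal tubule, and they supplied 40.8% of the members' summed score. The peak at chr1:138275835-138276536, which overlapped a peak of both other libraries, held 17.4 CPM in the loop to collecting duct cluster and 3.78 in immune clusters. In old library 2 the gene held 10.1 CPM in the cluster and 3.08 in proximal tubule. In the young library it held 3.74 and 0.753, and 5.92 in immune clusters, which had 208 barcodes. The highest level among immune clusters of old library 1, 52.0 CPM, was in the cluster led by T or NK cell markers. The gene lies 97982 bp from Ptprc, which encodes the leukocyte surface protein CD45. Of the 50 members of old library 1, 23 passed on Scnn1g and Atp6v1g3 alone, a pair that carried 3 of 38 and 2 of 23 members in the other libraries.

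**Figure D2:**
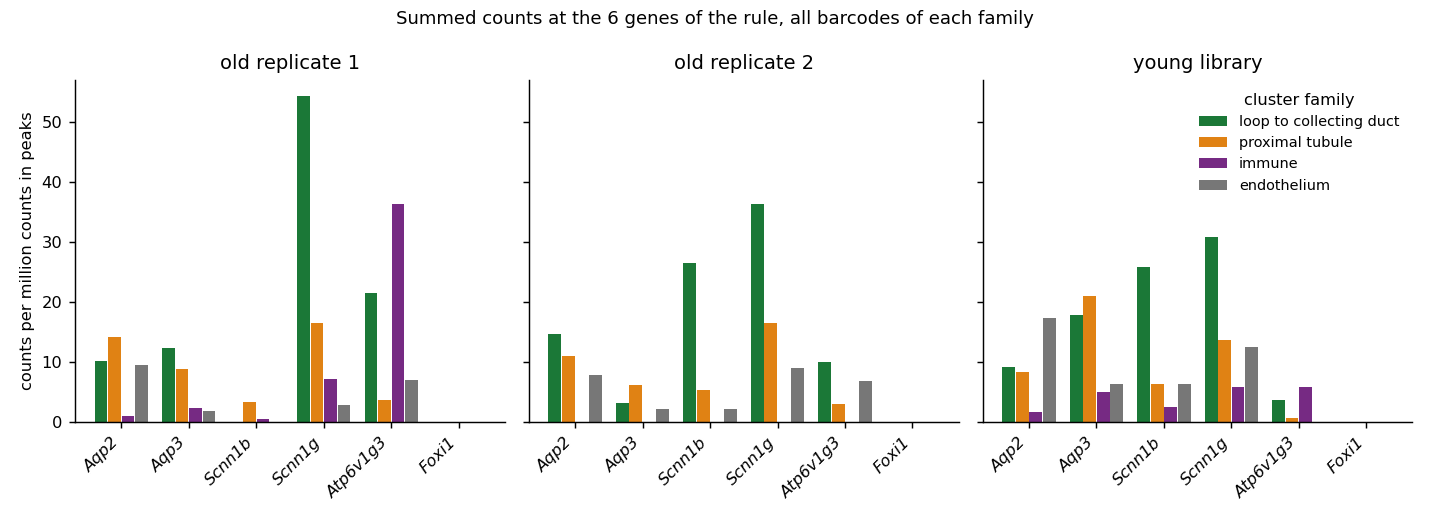
CPM at the 6 genes of the rule, summed over all barcodes of each cluster family, in each library. The immune family of old library 2 is not drawn because it held 9 barcodes. Among the families drawn, Scnn1g was highest in the loop to collecting duct cluster in all 3 libraries and Scnn1b in old library 2 and the young library. Atp6v1g3 was highest in the immune clusters in old library 1 and, at a lower level, in the young library.

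Markers of other cell types moved with the members of old library 1. The 10 T or NK cell markers summed to 451.6 CPM in its members, 47.8 in those of old library 2 and 46.6 in those of the young library, with 0, 5 and 5 of the 10 at 0. Over all barcodes kept they summed to 296.6, 49.4 and 61.0 CPM, with 0, 5 and 2 at 0. The 5 at 0 in old library 2 thus had no counts in any of its barcodes. Lck, the kinase of the T cell receptor pathway, stood at 105.3 CPM in members of old library 1 against 22.5 and 12.7. Cd3d, a chain of the same receptor, stood at 82.4 CPM against 0 and 7.06. Of the 50 members, 29 had at least as many counts at T or NK markers as at collecting duct genes, against 1 of 38 and 2 of 23. Macrophage markers outside the rule summed to 333.4, 40.8 and 69.2 CPM in members in the same order. Over all barcodes kept they summed to 530.8, 43.4 and 59.3 CPM, so the members of old library 1 lay below their own library. In the 3 members of old library 1 inside the loop to collecting duct cluster, all 10 T or NK markers were at 0.

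**Figure D3:**
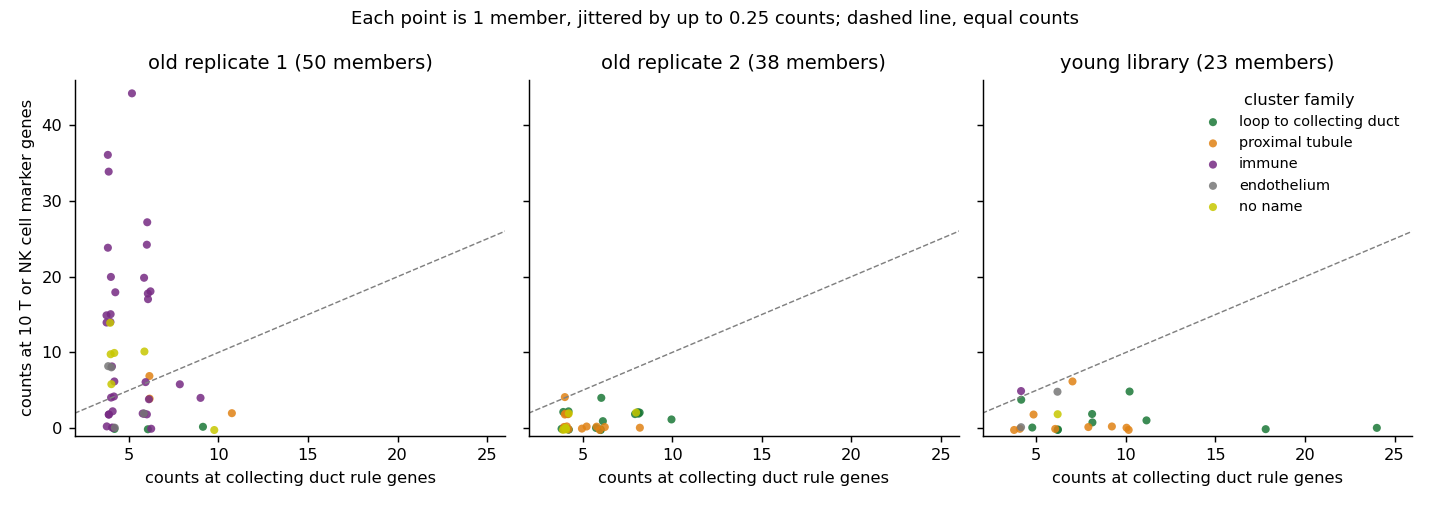
Counts at the collecting duct genes (horizontal) and at 10 T or NK cell markers (vertical) in each of the 111 members, coloured by cluster family. In old library 1, 29 of 50 members lie on or above the line of equal counts, and the highest has 44 T or NK counts.

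Proximal tubule and endothelial signal was present as well. The 5 proximal tubule genes of the rule summed to 42.1, 59.1 and 63.6 CPM in members of old library 1, old library 2 and the young library, against 397.2, 498.1 and 492.4 in proximal tubule-like cells chosen by the same form of rule. Outside the loop to collecting duct cluster, members of old library 2 and the young library held 97.1 and 105.1 CPM. Inside the cluster they held 12.5 and 15.3 CPM. Endothelial markers summed to 293.1 CPM in members of old library 1 against 125.1 and 132.8 in the others. Over all barcodes kept they summed to 247.6, 100.5 and 75.7 CPM, so the members of each library lay above their own library. The thick ascending limb set, which the rule allowed to equal the collecting duct score, summed to 175.0 and 210.9 CPM in the cluster's members of old library 2 and the young library, and 372.1 and 459.8 CPM in thick ascending limb-like cells.

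Members leaned to principal cells where they had more counts at Aqp2, Aqp3, Scnn1b and Scnn1g than at Atp6v1g3 and Foxi1. These were 15 of 50 in old library 1, or 30.0% (17.9 to 44.6). They were 31 of 38 in old library 2, or 81.6% (65.7 to 92.3), and 21 of 23 in the young library, or 91.3% (72.0 to 98.9). Intercalated-leaning members numbered 13, 2 and 1, and ties 22, 5 and 1. Since Foxi1 had no peak, the intercalated side rested on Atp6v1g3 alone, which in old library 1 was open in immune clusters. Too few members leaned to intercalated cells in old library 2 and the young library for a comparison of other genes.

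The markers outside the rule gave a separate view of the 27 members in the loop to collecting duct cluster of old library 2 and the young library. Hsd11b2, the enzyme that shields the mineralocorticoid receptor from glucocorticoids, stood at 43.7 CPM in old library 2 and 55.0 in the young library. Thick ascending limb-like cells had 16.6 and 11.5 CPM and proximal tubule-like cells 7.80 and 6.06. Scnn1a, the alpha subunit of the sodium channel, stood at 159.4 and 137.5 CPM against 144.9 and 102.6 in thick ascending limb-like cells. Nr3c2, the mineralocorticoid receptor, stood at 221.9 and 311.7 CPM against 215.9 and 217.2. Hsd11b2 was thus the furthest from the thick ascending limb of these 3. Avpr2, the vasopressin receptor, was near the limit, at 0 and 6.11 CPM. Aqp4, another basolateral water channel, was at 0 in both. Of the 10 principal cell markers outside the rule, 3 exceeded both comparison classes in both libraries, against 21.1% of 17453 coding genes.

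Intercalated cell markers outside the rule were also open in these members. Insrr, a receptor related to that of insulin and sensitive to alkali, stood at 103.1 CPM in old library 2 and 91.7 in the young library. Thick ascending limb-like cells had 26.6 and 30.7 CPM and proximal tubule-like cells 23.9 and 25.3. Rhcg, an ammonia transporter, stood at 78.1 and 55.0 CPM against 38.2 and 26.04 in thick ascending limb-like cells. Rhbg, its basolateral relative, stood at 81.2 and 76.4 CPM against 46.5 and 33.3. Slc4a9, a bicarbonate transporter of intercalated cells, stood at 62.5 CPM against 59.0 in old library 2 and was further above them in the young library, at 143.6 against 41.7. Atp6v1b1, the kidney form of the pump's B subunit, stood at 62.5 and 39.7 CPM against 64.0 and 41.1, so that thick ascending limb-like cells had as much. Of the 13 markers, 5 exceeded both comparison classes in both libraries.

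The remaining markers were low or uneven between the 2 libraries. Slc26a4, the chloride and bicarbonate exchanger pendrin, stood at 31.2 CPM in old library 2 and 36.7 in the young library against 19.9 and 18.2 in thick ascending limb-like cells. Slc4a1, the anion exchanger of acid-secreting intercalated cells, stood at 6.25 and 15.3 CPM against 1.66 and 16.7. Atp6v0d2, a pump subunit, had 43.7 and 0 CPM, Aqp6 6.25 and 42.8, Kit 0 and 21.4, Dmrt2 6.25 and 24.4, Atp6v1c2 25.0 and 9.17, and Hmx2 87.5 and 36.7. For none of these 6 genes did the members exceed thick ascending limb-like cells in both libraries. On the principal side, Elf5, a transcription factor of principal cells, had 15.6 and 55.0 CPM, Fxyd4 18.7 and 36.7, Gata3 40.6 and 79.5, Tmem45b 37.5 and 36.7, and Npnt 43.7 and 67.2. Proximal tubule-like cells exceeded the members for Npnt in both libraries, at 84.9 and 102.5 CPM.

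Other lists gave the following counts on the same measure, to be read beside the 21.1% of coding genes. Of 22 tight junction and epithelial genes, 14 exceeded both classes in both libraries. Among them Krt8, a keratin of simple epithelia, stood at 100.0 and 91.7 CPM against 56.1 and 41.1 in thick ascending limb-like cells, and Cldn3, a tight junction claudin, at 81.2 and 94.7 against 41.5 and 45.3. The sodium channel and aldosterone list, which holds 2 genes of the rule, gave 9 of 18, including Sgk1, the aldosterone-induced kinase, and Per1, a clock gene. Of 20 proton pump subunits 8 did so, of 22 transcription factors 7, and of 13 vasopressin and water transport genes 4. Among the factors, Gata2 stood at 37.5 and 88.6 CPM against 20.8 and 11.5. The count for proximal tubule markers outside the rule was 0 of 7. It was also 0 for T or NK markers, of which 5 of 10 had counts in both libraries and could have passed.

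The genes of the highest lowest ratio over both classes in these members were Scnn1b, Paqr4, Smbd1, Atp6v1g3, Insrr, Scnn1g, Nsun7, Rasd1, Kremen2 and Krt18, among genes of at least 20 CPM in both libraries. The ratios used a pseudocount of 5 CPM, and 3 of the 10 belong to the rule. Kremen2 encodes a receptor of the Wnt pathway and Rasd1 a Ras-related protein induced by glucocorticoid. Rasd1 stood at 62.5 and 119.2 CPM against 22.01 and 33.8 in thick ascending limb-like cells. Paqr4 stood at 65.6 and 58.1 CPM against 12.0 and 11.5. Over all 111 members, the list led with Aqp3 and Scnn1g, both of the rule. Ppp1r1c, the first gene outside the rule, had a lowest ratio of 1.74.

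When the 534 barcodes of the cluster from old library 2 and the young library were clustered again on the regions they share, 14 of the 27 members fell into 1 sub-cluster. It held 62 barcodes, 47 of old library 2 and 15 of the young library, and had the highest summed level of the rule's genes, 164.1 CPM against 24.3 to 91.0 in the other 7. The rule kept 22.6% of it (12.9 to 35.0). The same 14 members stood together when the resolution was raised to 1.5. The grouping depended on the seed of the clustering, and over the same 10 seeds the sub-cluster of the highest level held between 4 and 14 members. Depth was high in it, with a median of 17096 and 38150 counts in old library 2 and the young library. Of its members 9 leaned to principal cells and 2 to intercalated cells. It was picked by its score and its genes shaped it, so its levels are a description.

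Both marker sets were compared between this sub-cluster and the rest of the cluster. Of the 13 intercalated markers outside the rule, 9 stood above the rest of the cluster in both libraries, against 27.5% of 17247 coding genes. Insrr stood at 104.7 and 78.1 CPM against 31.6 and 31.8 in the rest. Kit, a receptor tyrosine kinase, stood at 36.6 and 26.7 CPM against 10.4 and 7.29, and Dmrt2, a transcription factor of intercalated cells, at 17.7 and 24.7 against 5.04 and 4.17. These 3 were at least 2-fold above the rest in both libraries, as were 0.371% of coding genes. Car2, the cytosolic carbonic anhydrase, stood at 85.7 and 74.0 CPM against 23.9 and 26.6, and Gata2 at 82.0 and 76.0 against 17.8 and 10.4. Of the 10 principal markers outside the rule, 4 stood above the rest in both libraries and none was 2-fold above in both. In old library 2 alone, 12 of 13 intercalated and 4 of 10 principal markers stood above the rest. In the young library alone 9 of 13 and 8 of 10 did. The 27.5% is for both libraries together, and no such share is given for a single library. Over all genes the median ratio of the sub-cluster to the rest was 1.01 in old library 2 and 1 in the young library. The difference between the sets was not tested. Hsd11b2 had 25.2 CPM against 23.9 in old library 2 and 41.1 against 10.9 in the young library. Slc12a3, the salt transporter of the distal convoluted tubule, was lower, at 49.2 and 43.1 CPM against 163.7 and 182.8, and Umod, the uromodulin gene of the thick ascending limb, stood at 23.96 and 12.3 against 38.7 and 65.6.

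**Figure D4:**
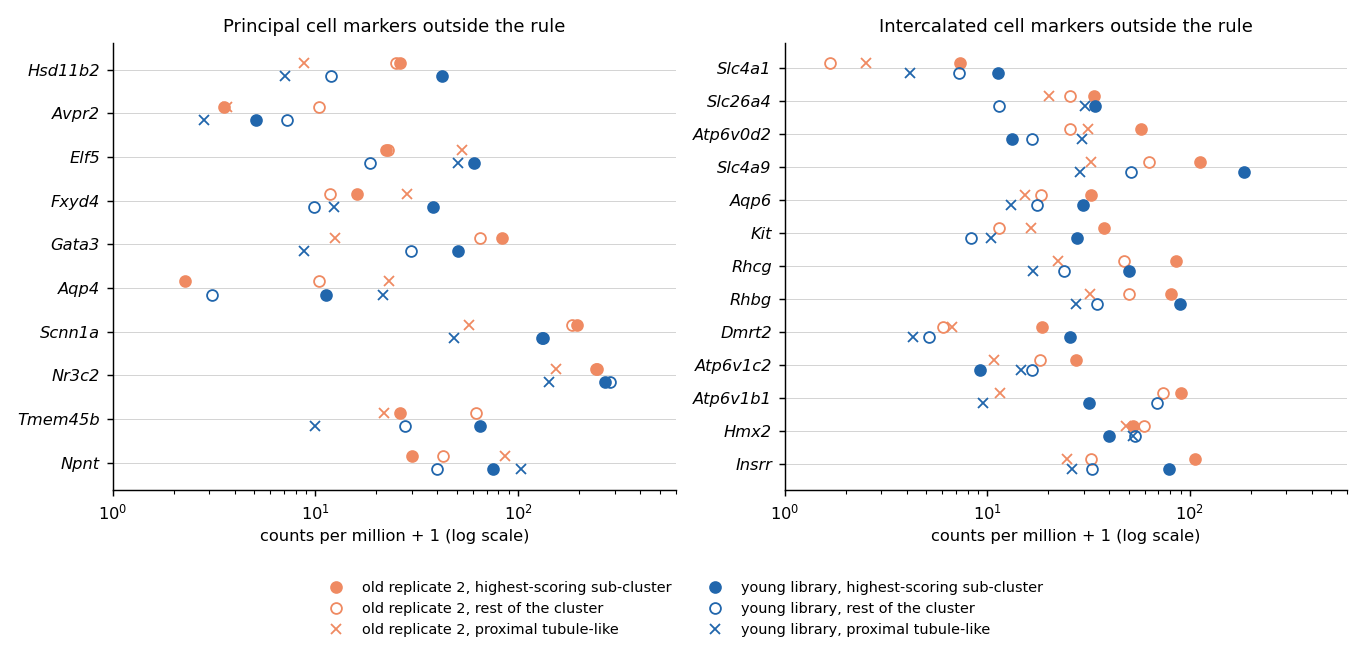
CPM plus 1 (log scale) of principal and intercalated cell markers outside the rule, in the sub-cluster of the highest score (filled), the rest of the loop to collecting duct cluster (open) and proximal tubule-like cells (crosses). Insrr, Kit and Dmrt2 lie at least 2-fold above the rest of the cluster in both libraries.

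Age was tested on counts summed over the members of each library, in 2 old libraries against 1 young one. No gene passed an adjusted p of 0.05 among 17305 tested with edgeR's quasi-likelihood test, so percent called was 0%. At an unadjusted p under 0.05 there were 146 genes, and DESeq2 gave 31 at that level and 0 after adjustment. No region passed among 16287 (0%), with 169 at an unadjusted p under 0.05 in edgeR and 118 in DESeq2. A 2 against 1 design cannot give an exact permutation p below 0.333. In simulated counts of the same depth, the gene test recovered 1.22% of genes changed by 2 on the log2 scale and 6.17% of those changed by 3. Changes of this size would mostly have been missed.

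The genes of the smallest p-values included genes of immune cells and of tubules. Wipf1, which organises actin in blood cells, had 119, 37 and 13 counts in members of old library 1, old library 2 and the young library, or 119.1, 54.4 and 19.0 CPM of the counts summed over genes in regions with a peak in every library. Its log2 difference of old minus young was 2.17 ± 0.73 (SE, unadjusted p = 0.0034, adjusted p = 0.9999 by edgeR). Cyba, a subunit of the phagocyte oxidase, had 80, 20 and 6 counts. Trac, the constant region of the T cell receptor alpha chain, had 35, 3 and 0 counts. In all 3 genes old library 1 was highest and the young library lowest. The T or NK and macrophage markers described above were also highest in members of old library 1. Between the other libraries their order differed, since macrophage markers stood at 40.8 CPM in old library 2 and 69.2 in the young library. The part of immune signal in these genes was not tested. Without old library 1 the difference at Wipf1 was 1.40, a value with no test. The other higher genes were Zdhhc2, Klhdc2, Wdr70, Vil1, Catip, Msl3l2 and Tmem97. Vil1, a structural protein of the brush border, had 36, 45 and 6 counts. Zdhhc2, Klhdc2, Catip and Msl3l2 had 0 counts in the young library and between 8 and 26 in each old one.

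On the lower side, Hrh2, a histamine receptor, had 12, 46 and 86 counts, with a log2 difference of -1.69 ± 0.61 (SE, unadjusted p = 0.0060, adjusted p = 0.9999 by edgeR). Atp12a, the catalytic subunit of the non-gastric proton and potassium pump of the collecting duct, had 2, 8 and 36 counts. The young library was highest in both, and old library 1 was lowest. The difference at Hrh2 was -0.86 without old library 1 and -3.18 without old library 2, values with no test. Of the 10 lower genes all lay closer to 0 without old library 1, and for 7 the fold change moved by over 1.5 times. Without old library 2 it also moved that far for 7, and 1 lay closer to 0. Of the 5 higher genes with counts in the young library, 4 lay closer to 0 without old library 1 and 2 without old library 2. The values with no test are log2 ratios of CPM with a prior count of 2, computed otherwise than the fit. The remaining lower genes were Cldn34d, Rsrc1, Txnrd3, Large2, Atp2b2, Shox2, Epo and Tstd2, and the windows of the neighbours Rsrc1 and Shox2 share regions. None of the 20 passed adjustment.

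By list, the principal cell markers outside the rule lay below 0 in all 8 genes tested (median log2 difference of old minus young -0.78), while 0 passed. Over all 17305 genes tested, 8848 lay above 0 and the median was 0.02. Intercalated markers outside the rule were above 0 in 1 of 8 (median -0.27). Tight junction and epithelial genes were above 0 in 3 of 19 (median -0.73), and duct transcription factors in 2 of 16 (median -0.86). The interferon and antigen presentation genes were above 0 in 18 of 20 (median 0.59), also with 0 passing. The share of members in immune clusters also differed, 34 of 50 in old library 1 against 0 of 38 and 1 of 23, and its part was not tested. A separate comparison of old library 2 minus young used fragments in regions with a peak in both libraries, with no test. Its median was -0.22 over 7 principal markers and 0.30 over 11 interferon genes. Regions, unit and genes differ from the fit as well, so the 2 sets of medians do not isolate old library 1. The lists of mitochondrial tRNA synthetases (median 0.14 over 22 genes), mitochondrial DNA maintenance (0.15 over 20), respiratory subunits (0.11 over 21) and the integrated stress response (0.12 over 18) lay near the median of all genes, with 0 passing.

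The age difference was also set against that in thick ascending limb-like cells, of which the same form of rule kept 30, 139 and 104. No gene passed the interaction test of edgeR among 22694 (0%), with 332 at an unadjusted p under 0.05. In the thick ascending limb-like cells alone 4 of 21156 genes passed the test of age by edgeR, 1 higher and 3 lower in old. These cells numbered 273 against 111 members, so the counts of genes passing are not like for like. Among 5 genes listed from earlier results of these data, Entpd2, an enzyme that breaks down extracellular ATP, had an interaction of -1.29 ± 0.76 on the log2 scale (SE, unadjusted p = 0.11 by edgeR). Cldn7, a claudin, had -0.47 ± 1.87 (SE, unadjusted p = 0.81 by edgeR). The histone genes H2ac11 and H2bc11, from shared regions, each had 1.40 ± 0.72 (SE, unadjusted p = 0.073 by edgeR). H4c9 had 1.74 ± 0.75 (SE, unadjusted p = 0.038 by edgeR). In thick ascending limb-like cells alone the log2 differences of old minus young were 1.16, 0.63, -1.10, -1.10 and -1.37 in this order. All 5 interactions had the opposite sign. The genes were picked from earlier results of these data, so their interactions are a description and not separate support. No difference between the classes passed, which does not show that they change alike.

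Without old library 1, 1 old and 1 young library remain and there is no test. Values are CPM computed on fragments in regions with a peak in both libraries, with exact 95% Poisson intervals on fragments, over 38 and 23 members. Scnn1b stood at 71.0 (45.9 to 104.7) in old library 2 and 65.6 (41.6 to 98.4) in the young library. For Scnn1g the values were 76.6 (50.5 to 111.5) and 79.8 (53.0 to 115.3), and for Aqp2 68.1 (43.6 to 101.4) and 31.4 (15.7 to 56.1). The rule chose members by counts at these genes among others, so their levels in both libraries are partly set by it. Outside the rule, Scnn1a stood at 99.3 (69.2 to 138.2) and 114.0 (81.4 to 155.2), and Nr3c2 at 181.6 (139.9 to 232.0) and 216.6 (170.7 to 271.1). Gata3, a transcription factor of the duct, stood at 17.03 (6.25 to 37.1) and 48.5 (28.2 to 77.6). Of the 29 genes of the rule and the principal and intercalated marker sets, 17 had the 20 fragments needed, and the intervals overlapped for all 17. The intervals were wide, and those of Aqp2 and Gata3 overlapped although the values differed by at least 2-fold. No share of all genes with overlapping intervals is given beside this count, so it does not show that duct genes were alike.

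**Figure D5:**
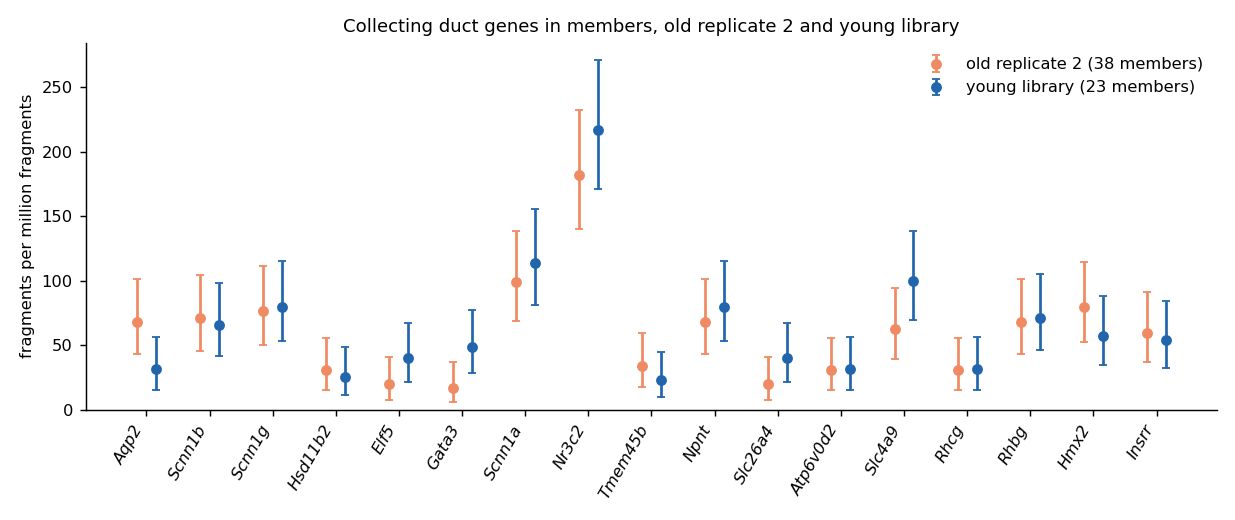
CPM of fragments at 17 collecting duct genes in the members of old library 2 and the young library, with exact 95% Poisson intervals. The intervals of the 2 libraries overlap for every gene drawn, which does not show equal levels because they are wide. Of the 17 genes, 3 belong to the rule, which partly sets their levels.

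Few listed genes differed by 2-fold between these libraries. Over all 13587 genes with enough fragments, 3.57% stood at least 2-fold above the young library in old library 2 and 3.02% at least 2-fold below. Of 28 replication-dependent histone genes measured, 5 were at least 2-fold below and 0 above (median log2 difference of old library 2 minus young -0.54). H4c1, a core histone, stood at 45.4 (25.96 to 73.7) and 114.0 (81.4 to 155.2), and H2bc8 at 5.68 (0.687 to 20.5) and 54.2 (32.6 to 84.6). In the fit of all 3 libraries, by contrast, 28 of 47 histone genes were above 0 (median log2 difference of old minus young 0.04), and H2bc8 had 108 counts in old library 1, 4 in old library 2 and 38 in the young library. H1f1 and H3c1 gave identical fragments because their windows cover the same regions. Other neighbouring histone genes also gave identical values in the fits, such as H2ac7, H2bc7 and H3c4. The counts of histone genes are therefore not counts of separate measurements. In the cell cycle list 3 of 19 were at least 2-fold below, among them Mki67, a marker of proliferation, at 19.9 (7.99 to 40.9) and 65.6 (41.6 to 98.4). Bub1, a kinase of the spindle checkpoint, stood at 8.51 (1.76 to 24.9) and 51.3 (30.4 to 81.1). In the fit of all 3 libraries 12 of 22 cell cycle genes were above 0 (median 0.11). Old library 2 and the young library were both at 80% load and differ in age. They also differ in depth (median 17118 and 27728 counts in members) and in the clusters their members lay in. With 1 library a group there is no measure of spread, and age cannot be told apart from other differences between the libraries.

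Other lists held fewer such genes. Uqcrfs1, a subunit of respiratory complex III, was higher in old library 2 at 85.1 (57.4 to 121.6) against 28.5 (13.7 to 52.4). It was 1 of 2 such genes among 14 respiratory subunits. Pck2, the mitochondrial carboxykinase, was lower at 14.2 (4.61 to 33.1) against 62.7 (39.3 to 94.9), the only 1 of 16 integrated stress response genes. Of 17 sodium channel and aldosterone genes none differed by 2-fold, and of 16 proton pump subunits 1 was lower, Atp6ap2. Among the 27 members of the loop to collecting duct cluster 6540 genes had enough fragments, of which 4.25% were at least 2-fold higher and 5.03% lower in old library 2. There Hes1, a Notch target of duct cell fate, stood at 114.8 (68.0 to 181.5) and 270.1 (196.2 to 362.6), with intervals apart. Of 9 histone genes 4 were at least 2-fold lower, among them H1f1 and H3c1, which share regions.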

How the data were processed

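Cell Ranger ATAC 2.1.0 with mm10 made the deposited counts per the file headers and the notes of the submitters, transposition events per peak and called barcode, with peaks called separately in each library. Total counts were 96093221, 64729297 and 110871506 in old library 1, old library 2 and the young library. Most counts were even (94.3%, 90.9% and 89.5%), so fragments were taken as the count divided by 2, rounded up. The deposited peak coordinates and barcodes carry no unit of measurement.

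Barcodes with at least 1000 counts were kept. A gene's count is the sum over peaks that overlap its body and 2 kb flanks, with gene positions from RefSeq GRCm38.p6, and overlapping genes can share peaks. All 129 marker symbols and 360 of 363 list symbols were matched. Peaks that overlap by 1 bp were merged into 250005 regions, of which 72317 had a peak in every library, and those open in at least 1% of barcodes entered latent semantic indexing (30 components, 20 neighbours) and Leiden clustering (resolution 1.0). Simulated doublets marked 516 barcodes, which stayed in and were left out in an alternative. Summed counts were tested with edgeR 4.0.16 (quasi-likelihood, at least 30 counts, Benjamini-Hochberg adjustment, threshold 0.05), with DESeq2 1.42.0 as an alternative, in R 4.3.3. The interaction test had the library as a block. Clustering and descriptions used Python 3.11.15, scikit-learn 1.9.0 and leidenalg 0.10.2. The gene test was tested on simulated data of 16450 genes, with 0 false calls.

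The members and lists were chosen with earlier results of these data known. Genes named were those of the rule, the principal and intercalated markers, up to 10 genes of the smallest p-values in each direction (predicted genes and clones left out), the 10 protein-coding ones of the highest ratio over comparison cells and those of earlier calls. Other genes named from lists are examples chosen after their values were seen. Leading genes of principal- against intercalated-leaning members were not given, because 2 and 1 members leaned to intercalated cells in old library 2 and the young library. Motifs in peak regions were not analysed here, since no genome sequence was used.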

Additional observations from a re-analysis of the deposited data

How the results depend on the processing

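The number of members depended on the minimum score. With a minimum of 8 it was 5 in old library 1, 7 in old library 2 and 10 in the young library. The principal-leaning shares were then 60%, 100% and 100%. When members also had to exceed their T or NK, B, neutrophil and endothelial scores, 8 remained in old library 1 and 22 in old library 2. With gene bodies alone, without flanks, the rule kept 33 in old library 1. The share of members in the loop to collecting duct cluster was 54.5% with a minimum of 8, 41.3% under the stricter rule, 19.0% after thinning to 5000 fragments and 44.3% in old library 2 and the young library alone, alternatives chosen after seeing the data. Seeds 1 to 10 of the clustering, also added after seeing the data, left that share at 27.0%, while the sub-cluster of the highest level held 4 to 14 members. The cause of these shifts was not tested.

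No gene, region or interaction passed an adjusted p of 0.05 in any of 25 settings of the 3 tests by edgeR or DESeq2, and the smallest adjusted p was 0.14, for regions in members of the loop to collecting duct cluster. At an unadjusted p under 0.05, genes ranged from 31 to 252, regions from 34 to 763 and interactions from 53 to 382 over the settings with a test. The median interaction over all genes was -0.012 on the log2 scale. It was -0.0093 without old library 1, turned to 0.0077 without old library 2, and was -0.125 under the stricter rule and -0.195 in members of the loop to collecting duct cluster. The 20 genes of the smallest p-values kept their direction in all 207 values computed for them under alternatives. They were picked from the same counts, and some, such as Zdhhc2 and Trac, had no counts in the young library. Their direction could therefore hardly turn, and its constancy is not separate support. No paired analysis was possible because only the old group has replicate numbers 1 and 2 and the young group has 1 library. The planned motif analysis of leading regions was not run. With 23 to 50 members a library, depth limits every gene value.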
